A study of Mus musculus with 6 samples.

Results

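The genes described here build and load major histocompatibility complex (MHC) class I molecules, and comprise B2m, H2-K1, H2-D1, Tap1, Tap2, Tapbp, Psmb8, Psmb9 and Psmb10. They are 9 of the 22907 genes that the array's RefSeq accessions named. Every probe whose accession names one of these genes was taken, which gave 13 probes with 1 spot each. The samples were C5aR+ LysoDCs, lysozyme-expressing mononuclear phagocytes of mouse Peyer's patch that carry a receptor for the complement fragment C5a. After sorting and culture with CSF-1 and CFS-2 (the labels' spelling), 3 samples received 100 nM recombinant C5a for 3 h and 3 samples received 0 nM, and each sample was hybridised to 1 single-colour array. The comparison asks whether C5a signalling changes the RNA of these cells. The mouse strain, age and sex, the culture time of the untreated samples and whether replicates came from separate animals are not given in the sources used here, so the spread behind each p-value is that of these samples and may be technical.

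A class I molecule is a heavy chain, such as the products of H2-K1 and H2-D1, bound to beta-2-microglobulin, the product of B2m, and to a short peptide that it shows to CD8 T cells. The proteasome cuts the peptides in the cytosol. Interferons and other inflammatory signals can exchange its constitutive catalytic subunits for Psmb8 (LMP7), Psmb9 (LMP2) and Psmb10 (MECL-1), which form the immunoproteasome. The TAP1-TAP2 transporter pumps peptides into the endoplasmic reticulum, and tapasin, the product of Tapbp, holds the empty heavy chain beside the transporter until a peptide is loaded. Dendritic cells use this route to present peptides from their own cytosol and, in cross-presentation, from material they have taken up.

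No gene of the group changed past the test with C5a. In limma with Benjamini-Hochberg adjustment, 0 of 9 tested member probes had an adjusted p under 0.05, where 0% of all 4958 tested probes did, and the lowest adjusted p of a member was 0.9996. A positive difference was found for 5 of the 9, and for 54.1% of all tested probes, and the members' median difference was 0.04 on the log2 scale, against 0.03 overall. For 0 of the 9 member probes did the 3 C5a samples lie wholly to one side of the 3 untreated samples; 5.77% of all tested probes had such groups, 3.35% with C5a higher and 2.42% with C5a lower. At an unadjusted limma p under 0.05 there were 0 member probes, where 2.36% of all tested probes passed. Without any filter on dim signals 0.0848% of 56605 probes were called, and 0 of the 13 member probes. The light and heavy chains were detected in every sample, while the transporter probes were detected on at most 3 of the 6 arrays.

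The promoters are shown first because the class I chains and their loading genes are classically controlled from these stretches. RefSeq windows of GRCm38.p6, from 250 bases before to 50 bases after a gene's start, were found for 8 of the 9 genes. The 4 printed below are those of the light chain, of both heavy chains, and of the stretch that Tap1 and Psmb9 share. Letters in capitals mark matches on either strand to the kappaB motif, to the interferon regulatory factor (IRF) element AANNGAAA, to the CCAAT box or to the GC box GGGCGG.
B2m, chr2:122147437-122147736, plus strand: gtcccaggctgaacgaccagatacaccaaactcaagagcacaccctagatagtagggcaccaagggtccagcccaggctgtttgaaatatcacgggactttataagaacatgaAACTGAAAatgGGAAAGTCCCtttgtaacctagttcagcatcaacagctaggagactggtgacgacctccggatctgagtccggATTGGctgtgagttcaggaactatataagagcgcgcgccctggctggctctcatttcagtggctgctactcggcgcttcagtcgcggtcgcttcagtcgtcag
H2-K1, chr17:34000284-34000583, minus strand: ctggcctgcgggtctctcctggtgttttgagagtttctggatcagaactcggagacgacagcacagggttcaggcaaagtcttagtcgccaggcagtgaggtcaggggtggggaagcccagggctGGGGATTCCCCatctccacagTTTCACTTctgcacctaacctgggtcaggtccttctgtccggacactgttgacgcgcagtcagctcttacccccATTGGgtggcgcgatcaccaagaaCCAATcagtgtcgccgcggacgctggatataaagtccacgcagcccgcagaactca
H2-D1, chr17:35262844-35263143, plus strand: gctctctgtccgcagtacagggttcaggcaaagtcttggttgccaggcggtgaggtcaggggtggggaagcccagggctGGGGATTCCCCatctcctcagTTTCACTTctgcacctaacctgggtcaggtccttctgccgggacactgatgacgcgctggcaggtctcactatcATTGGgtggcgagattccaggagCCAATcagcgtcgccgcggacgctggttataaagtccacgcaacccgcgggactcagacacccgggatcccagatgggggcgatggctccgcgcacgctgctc
Tap1, chr17:34187306-34187605, plus strand: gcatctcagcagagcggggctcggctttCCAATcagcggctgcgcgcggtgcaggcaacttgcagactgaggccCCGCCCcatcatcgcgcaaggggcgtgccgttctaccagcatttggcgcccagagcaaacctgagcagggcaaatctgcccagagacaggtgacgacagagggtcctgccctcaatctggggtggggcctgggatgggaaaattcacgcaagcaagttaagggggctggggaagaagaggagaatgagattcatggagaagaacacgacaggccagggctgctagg

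The H2-K1 and H2-D1 windows were identical at 217 of 242 aligned columns (89.7%). Both hold a palindromic kappaB stretch, in which 4 overlapping placements of the motif were counted, followed by 1 IRF element and 2 CCAAT boxes. RefSeq gives H2-K1 2 starts, and the window of the other start holds the same matches. The B2m window has 1 kappaB match, 1 IRF element and 1 CCAAT box, with the IRF element before the kappaB match and not after it. A kappaB match was present in 8.49% and an IRF element in 23.9% of 32544 distinct windows of the same length, and both together in 1.47%. The starts of Tap1 and Psmb9 lie 226 bases apart on opposite strands, so that 275 of the 300 bases of their windows are the same DNA. This shared stretch has 1 CCAAT box and 1 GC box, which 37.4% and 35.9% of all windows hold, and neither window matched the kappaB motif or the IRF element. Tapbp had 2 CCAAT boxes and 1 GC box, and Psmb8 and Psmb10 matched none of the 4 motifs, so that 3 of the 8 genes held both a kappaB match and an IRF element. Matches are descriptions of the letters and not of factor binding, which these arrays do not measure.

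The values below are log2 processed signals less each array's 75th percentile over the probes detected on all 6 arrays, and differences are C5a minus untreated. A probe was detected where Feature Extraction, the scanner's software, flagged its spot as well above background, and it was tested if 3 or more arrays, regardless of treatment, carried that flag. Of the 13 member probes, 6 were detected on all 6 arrays, for B2m, H2-K1 (both probes), H2-D1, Tapbp and Psmb10, and 2 on none. Tap1 was the only one of the 9 genes with no tested probe. The arrays were uneven in brightness, with 3668 to 6651 of 56605 probes detected on C5a arrays and 2727 to 6959 on untreated arrays. Unscaled, the 75th percentile ran from 154 to 377 on C5a arrays and from 109 to 460 on untreated arrays.

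**Figure D1:**
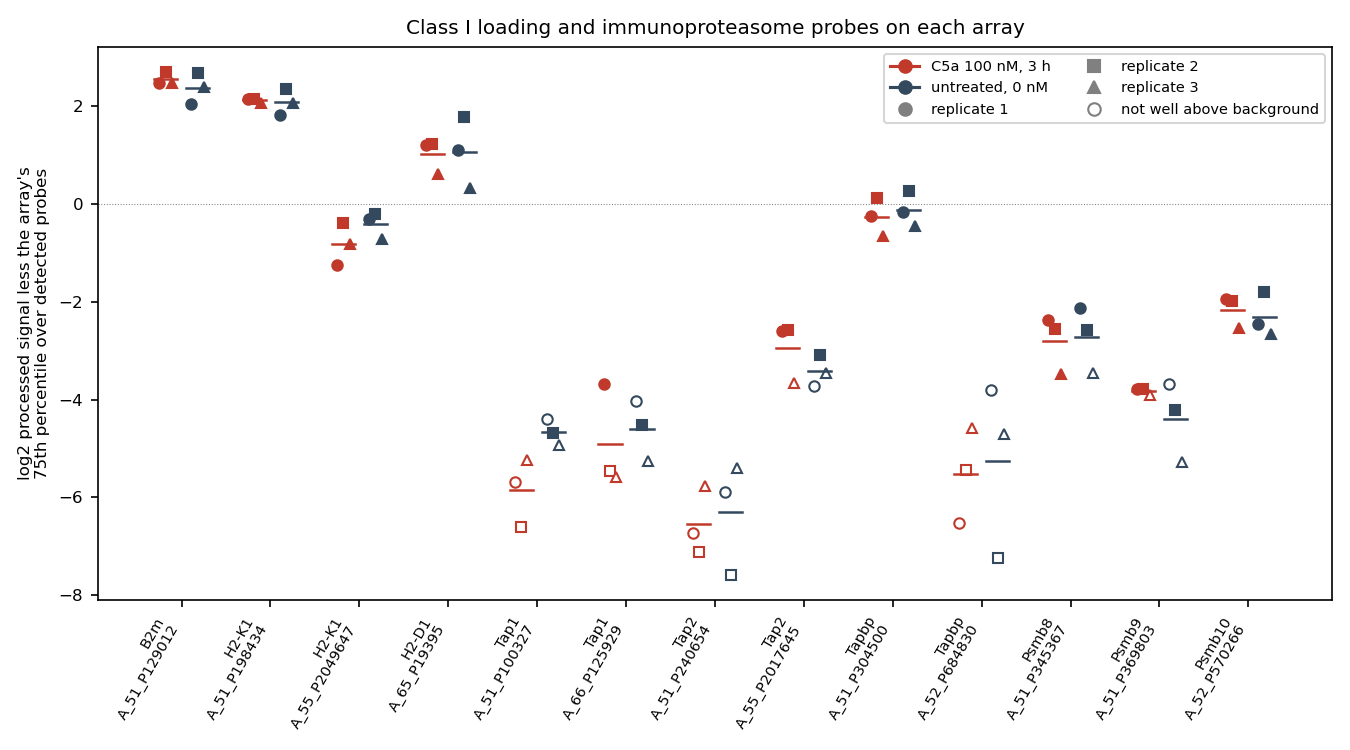
Scaled log2 signal of the 13 member probes on each of the 6 arrays, with C5a samples in red at the left of each probe and untreated samples in blue at the right. Lines are group means of 3 samples, marker shapes are replicate numbers, and open markers were not well above background; all 6 markers are filled for 6 probes, and in these 6 the groups overlap.

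The light chain gave a strong signal in every sample. B2m (probe A_51_P129012) had unscaled processed signals of 1399, 2442 and 857 in C5a 1 to 3, against 672, 2937 and 568 in untreated 1 to 3. Scaled, these were 2.46, 2.69 and 2.48 with C5a and 2.04, 2.68 and 2.38 in untreated samples. Untreated 1 was the lowest, and the other 5 samples ran from 2.38 in untreated 3 to 2.69 in C5a 2. The group means were 2.54 ± 0.13 with C5a and 2.37 ± 0.32 in untreated samples (SD, n = 3 each). The difference was 0.18 (SE 0.28, 95% interval -0.48 to 0.83, limma adjusted p = 0.9996), so the interval reaches from 0.718-fold to 1.78-fold. Within each replicate number the C5a sample was the higher one, by 0.42, 0.02 and 0.09, and leaving out 1 sample moved the difference between 0.01, without untreated 1, and 0.33, without untreated 2.

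The 2 heavy chains were detected on all arrays as well. The H2-K1 probe A_51_P198434 was at 2.15, 2.14 and 2.07 in C5a 1 to 3 and at 1.83, 2.36 and 2.07 in untreated 1 to 3. The C5a samples sat inside the range of the untreated ones, with a pooled SD of 0.19, which was smaller in 8.41% of tested probes. Its difference of 0.04 (SE 0.26, 95% interval -0.58 to 0.65) allows from 0.668-fold to 1.57-fold. The log2 difference of B2m and this H2-K1 probe within an array was 0.31, 0.55 and 0.41 in C5a 1 to 3 and 0.21, 0.32 and 0.31 in untreated 1 to 3. The ranges overlap, though the C5a value was the higher one within each of the 3 replicate numbers, and this pair was chosen after the values were seen.

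The second H2-K1 probe did not follow the first. Probe A_55_P2049647, which carries the same accession, was at -1.24, -0.39 and -0.82 in C5a 1 to 3, against -0.30, -0.20 and -0.72 in untreated 1 to 3. C5a 1 was the lowest sample and the groups overlapped. The difference was -0.41 (SE 0.32, 95% interval -1.17 to 0.35), and it did not pass. It was negative within all 3 replicate numbers. Under 18 alternatives it ran from -0.84 with the slide row as covariate to -0.05 with the deposited series table and with the percentile over all probes. The -0.84 sets C5a 1 alone against the untreated samples. The filters and the replicate block among the alternatives cannot change the difference, so the shared negative sign is in part fixed in advance. Leaving out 1 sample moved the difference between -0.62, without C5a 2, and -0.20, without C5a 1. Less the first H2-K1 probe on the same array, the second probe stood at -3.40, -2.54 and -2.89 with C5a and at -2.13, -2.55 and -2.79 in untreated samples. Replicates 2 and 3 were therefore alike in both groups by this measure, and replicate 1 set the gap.

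H2-D1 (probe A_65_P19395) was at 1.21, 1.22 and 0.61 in C5a 1 to 3 and at 1.11, 1.77 and 0.33 in untreated 1 to 3. The samples numbered 3 were lowest in both groups, and the 3 C5a values fell within the untreated range. The difference was -0.06 (SE 0.42, 95% interval -1.04 to 0.93), and its sign turned under 6 of 19 alternatives. These include filters and the replicate block, which cannot change a probe's difference. Class I heavy chain genes are close copies of each other and differ between strains, and no probe sequences were used here, so how far these probes separate H2-K1, H2-D1 and their relatives is uncertain.

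The peptide transporter was near the limit of detection. For Tap1, probe A_66_P125929 gave processed signals of 19.9, 8.57 and 3.19 in C5a 1 to 3, against 9.96, 20.1 and 2.85 in untreated 1 to 3, and was detected on C5a 1 and untreated 2 alone. The lowest signal of any detected probe was 10.5 to 11.2 on C5a arrays and 11.1 to 12.8 on untreated arrays. The other Tap1 probe, A_51_P100327, was detected on untreated 2 alone, at 18.0. Its C5a signals of 4.94, 3.90 and 4.07 were each below their own Feature Extraction errors of 4.95, 3.91 and 4.09. Its scaled values were lower in all C5a samples than in all untreated samples, but with no C5a array above background they have no order, and the bound by the lowest detected signals is under 1-fold, so no fold is given.

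Tap2 split by probe. Probe A_51_P240654 was detected on no array, with processed signals of 2.41 to 2.82 with C5a and of 2.40 to 2.77 in untreated samples. Probe A_55_P2017645 was detected on C5a 1, C5a 2 and untreated 2. Its scaled values were -2.60, -2.58 and -3.65 in C5a 1 to 3 and -3.73, -3.09 and -3.46 in untreated 1 to 3. C5a 1 and 2 stood above all untreated samples, while C5a 3 lay among them. The difference was 0.48 (SE 0.38, 95% interval -0.42 to 1.38, limma adjusted p = 0.9996), and it was positive in replicate numbers 1 and 2, by 1.14 and 0.51, and negative in number 3, at -0.20. With 2 detected C5a arrays and 1 detected untreated array this probe entered the test partly through the group where it was higher. Leaving out 1 sample moved the difference between 0.30, without C5a 2, and 0.84, without C5a 3. It was 0.83 with the slide row as covariate, 0.67 with array weights, 0.84 with the percentile over all probes and -0.07 with normexp background correction.

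Tapasin was measured by 1 of its 2 probes. Tapbp probe A_51_P304500 was detected on all arrays, at -0.24, 0.12 and -0.65 in C5a 1 to 3 and at -0.17, 0.27 and -0.46 in untreated 1 to 3. Each C5a sample was slightly below the untreated sample of the same number, by -0.08, -0.15 and -0.20. The samples ranked alike in both groups, with number 2 highest and number 3 lowest. The difference of -0.14 (SE 0.33, 95% interval -0.92 to 0.63) did not pass, and its sign turned under 5 of 19 alternatives, including those that cannot change it. The other probe, A_52_P684830, which names a second Tapbp transcript, was detected on no array.

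Of the 3 immunoproteasome subunits, which cut peptides with ends that suit class I molecules, none passed. Psmb8 (probe A_51_P345367) was at -2.37, -2.55 and -3.49 in C5a 1 to 3 and at -2.12, -2.58 and -3.46 in untreated 1 to 3, and was detected on all but untreated 3. Samples of the same number were close, so that the difference of -0.09 (SE 0.46, 95% interval -1.16 to 0.99) sat beside within-number values of -0.25, 0.02 and -0.03. Psmb10 (probe A_52_P570266) was detected on all arrays, at -1.95, -1.99 and -2.54 in C5a 1 to 3, against -2.46, -1.81 and -2.66 in untreated 1 to 3. Its groups overlapped, with a difference of 0.15 (SE 0.34, 95% interval -0.64 to 0.94).

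Psmb9 had the largest difference of the 9 tested probes, and was detected on C5a 1, C5a 2 and untreated 2 alone, so that it too entered the test partly through the group where it was higher. Probe A_51_P369803 was at -3.79, -3.79 and -3.91 in C5a 1 to 3, against -3.69, -4.21 and -5.28 in untreated 1 to 3. The C5a samples lay close together and untreated 3 was far below, but the values of C5a 3, untreated 1 and untreated 3 were not well above background and their order carries little. On untreated 3 the processed signal was 2.80 with a Feature Extraction error of 2.81, and was not flagged as positive and significant. The difference was 0.57 (SE 0.42, 95% interval -0.43 to 1.56, limma unadjusted p = 0.222, adjusted p = 0.9996). Leaving out 1 sample moved it between 0.12, without untreated 3, and 0.92, without untreated 1, and without both samples numbered 3 it was 0.16. It was 1.00 with quantile normalization and -0.05 with normexp background correction. With the percentile over all probes it was 0.93, where the median of all tested probes was 0.40. A larger absolute difference was seen in 16.0% of all tested probes.

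**Figure D2:**
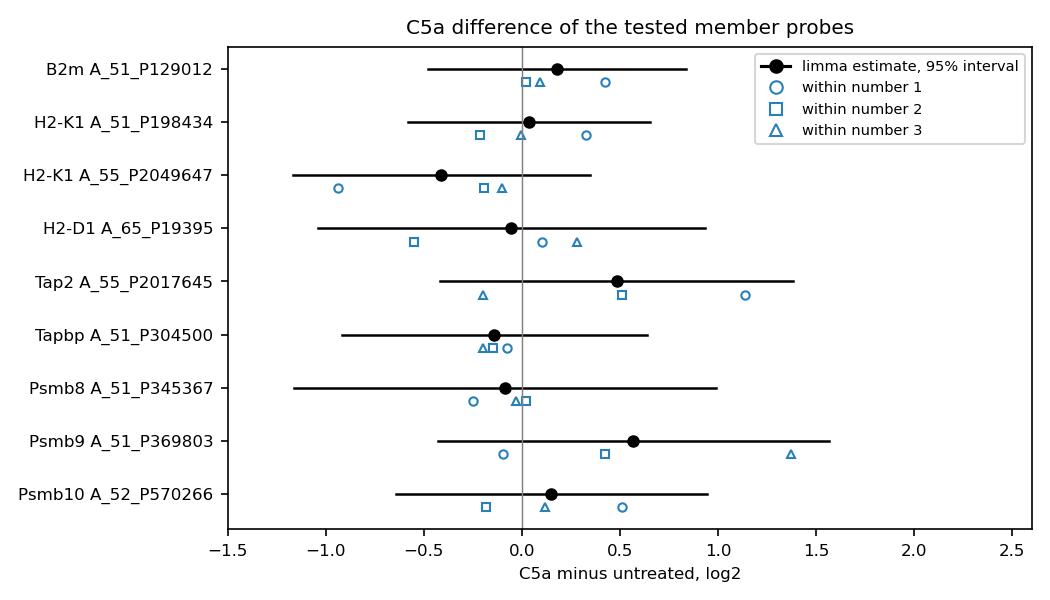
Difference of each of the 9 tested member probes, C5a minus untreated in log2 units, with black points for the limma estimate, bars for its 95% interval, and open blue markers for the difference within each replicate number. Every interval holds 0, and estimates run from -0.41 for the second H2-K1 probe to 0.57 for Psmb9.

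The intervals, from a fit that does not pair the samples, set what these arrays could have missed in that fit. Over the 9 tested probes they reached from 0.445-fold at the lowest to 2.96-fold at the highest. The median SE was 0.34 for the members and 0.37 for all tested probes. The exact two-sided permutation test of 3 against 3 samples cannot go below 0.1, and the lowest member value was 0.2, for the second H2-K1 probe. Of the 9 probes, 3 had the same sign within all 3 replicate numbers, and 25.3% of all tested probes did.

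The members varied together across the arrays more than between the groups. Taking the brightest tested probe of the 8 genes and centring each on its own mean, the average deviation was 0.22, 0.27 and -0.28 in C5a 1 to 3 and -0.04, 0.28 and -0.46 in untreated 1 to 3. All 8 genes were above their own mean on C5a 2 and 0 of 8 were on untreated 3. The 6 arrays ranked in the same order by this average as by their unscaled 75th percentile, with untreated 2 highest and untreated 3 lowest in both. Averaged over all 4488 genes with a tested probe, counting unnamed probes singly, the deviation was 0.07, 0.06 and -0.10 in C5a 1 to 3 and -0.02, 0.06 and -0.07 in untreated 1 to 3. With array brightness as a covariate, member differences ran from -0.48 for the second H2-K1 probe to 0.49 for Psmb9, and 0 passed.

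**Figure D3:**
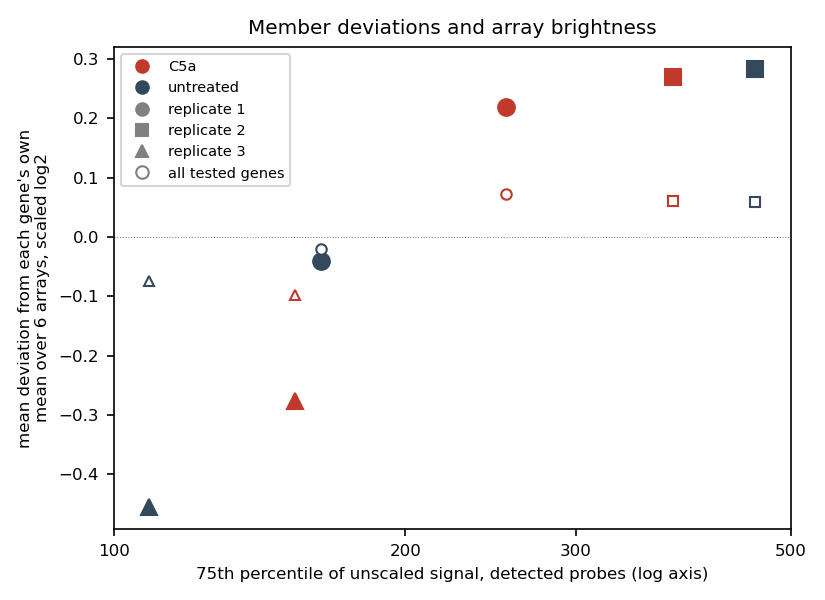
Average deviation of the 8 member genes from their own means, in scaled log2 units, against the unscaled 75th percentile of each array on a log axis. Filled markers are member genes and open markers all genes with a tested probe, C5a in red and untreated in blue; member values run from -0.46 on untreated 3 to 0.28 on untreated 2, in the order of array brightness.

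The 5 named genes whose tested probes ranked most like this average over the 6 arrays were Ywhag (a 14-3-3 protein), Pxdc1, Ccdc71l, Cyth4 (a cytohesin) and Tspan14 (a tetraspanin), among 3267 genes. Their Pearson correlations were 0.995, 0.991, 0.988, 0.985 and 0.984. In all 148 genes were above 0.9, and the arrays share their brightness order, so these values describe likeness only. They also rest in part on signals not well above background. Ywhag and Ccdc71l were detected on 2 C5a and 1 untreated arrays, Tspan14 on 2 of each group, and Pxdc1 and Cyth4 on 3 C5a and 2 untreated arrays.

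Each immunoproteasome subunit was also set against the constitutive subunit whose place it takes, within each array, which removes the scaling between arrays. Psmb8 less Psmb5 was -0.58, -0.52 and -1.02 in C5a 1 to 3 and -0.84, -0.32 and -0.83 in untreated 1 to 3, means of -0.71 ± 0.27 and -0.66 ± 0.30 (SD, n = 3 each). Psmb9 less Psmb6 averaged -4.67 ± 0.45 with C5a and -4.98 ± 1.17 in untreated samples, where untreated 3 stood at -6.25. Psmb10 less Psmb7 averaged 1.36 ± 0.58 with C5a and 0.87 ± 1.21 in untreated samples. The levels of 2 different probes do not give a ratio of molecules, so only the change between groups can be read. It was -0.04, 0.31 and 0.49 for the 3 pairs, with exact two-sided permutation p-values of 1, 0.9 and 0.6, all 1 after adjustment over the 3 pairs, and the groups overlapped in each. The 0.31 and 0.49 rest in part on arrays not well above background, since Psmb9 was detected on 3 of the 6 arrays and Psmb7 on 2 of 3 in each group, so neither p-value says that the pairs were alike.

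**Figure D4:**
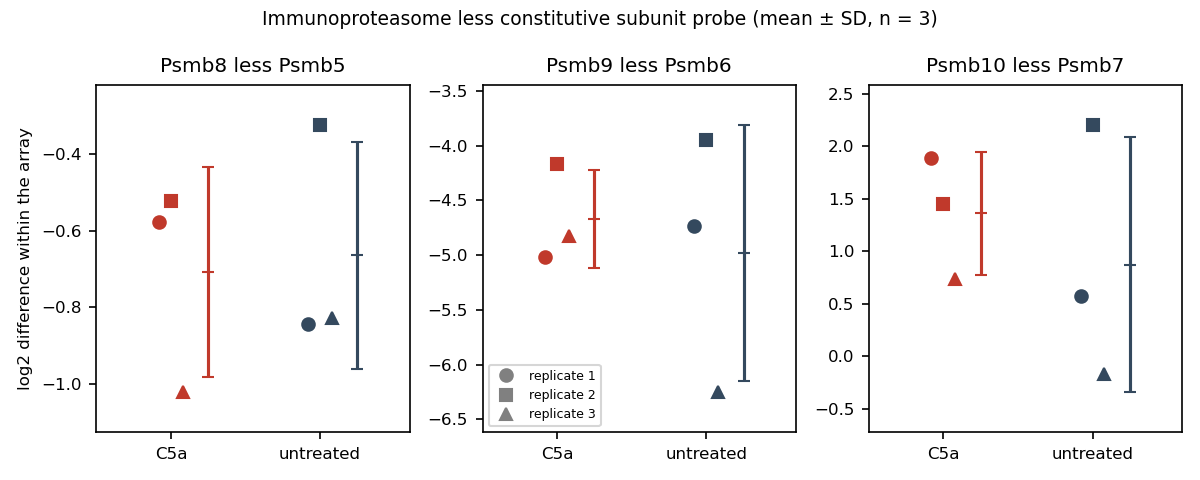
Within-array log2 difference of each immunoproteasome subunit probe less its constitutive counterpart, with C5a samples in red at the left and untreated samples in blue at the right of each panel. Symbols are replicates, bars are mean ± SD of 3 samples, and the vertical scales differ; the groups overlap in all 3 panels, and Psmb9 less Psmb6 has its lowest value, -6.25, in untreated 3.

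Genes that work beside the members gave 0 calls in limma with Benjamini-Hochberg adjustment, and 0 at an unadjusted p under 0.05. Of the peptide loading and endoplasmic reticulum partners, 5 of 9 were measured, 3 with a positive and 2 with a negative difference (median 0.18). Hspa5, the chaperone BiP, was at -0.65, 0.71 and 1.02 in C5a 1 to 3 and at -0.68, -0.84 and -0.22 in untreated 1 to 3, a difference of 0.94 (SE 0.47) with overlapping groups. Canx, the lectin chaperone calnexin that folds new heavy chains, differed by 0.31 (SE 0.28). Its groups did not overlap, as in 5.77% of all tested probes, and the nearest samples were C5a 1 at -0.93 and untreated 3 at -0.96. Erap1, which trims peptides in the endoplasmic reticulum, and the tapasin relative Tapbpl were detected on no array.

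Of the proteasome activator and constitutive catalytic genes, 7 of 8 were measured, 4 higher and 3 lower (median 0.01). Psme4, the activator PA200, had the smallest p, at a difference of 0.76 (SE 0.45) with 1 detected untreated array, and Psmb7, a constitutive catalytic subunit, differed by -0.34 (SE 0.43). Among the other class I and class I-like genes, 5 of 13 were measured, 1 with a positive and 4 with a negative difference (median -0.09). H2-Q10, a class I gene best known as a secreted liver product, differed by -2.05 (SE 1.16), with -5.96 in C5a 3 where the other 5 samples lay between -1.71 and -0.54. That C5a 3 value was below the lowest detected signal of its array, at -3.81, so the size of this difference rests on a value not above background. H2-M3, a class I-like gene that presents formylated peptides, differed by 0.56 (SE 0.50), and was detected on 2 C5a and 1 untreated arrays. It too entered the test partly through the group where it was higher. Its values in C5a 3, untreated 1 and untreated 3 were below the lowest detected signals of those arrays. Cd1d1, Mr1, Fcgrt and Hfe were detected on no array.

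Of the regulators of the class I genes, 10 of 17 were measured, with 5 differences in each direction (median 0.01). Ciita, the activator of class II genes, differed by -0.55 (SE 0.53), and Ifnar2, a chain of the type I interferon receptor, by 0.43 (SE 0.43). Ifnar2 was detected on 3 C5a and 1 untreated arrays, so it entered the test mainly through the group where it was higher. Its -4.23 in untreated 1 and -3.38 in untreated 3 were below the lowest detected signals of those arrays, at -3.67 and -3.14. Nlrc5, the transactivator of class I genes, was detected on no array, as were Irf2, Rfx5, Rfxank and Rfxap.

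The cell type label was checked against markers. Of 12 mononuclear phagocyte markers 7 were detected on all 6 arrays, among them Lyz1, Lyz2, Csf1r, Itgax and Itgam, while Cx3cr1, Mertk and Fcgr1 were detected on none. The summed linear level of this list was 9.28 to 16.4 times the array's 75th percentile with C5a and 8.48 to 15.0 times in untreated samples. C5ar1 was detected on 2 C5a and 1 untreated arrays. Of other cell types, which can also carry class I genes, all 6 T cell markers on the array, all 5 stromal and endothelial markers, 5 of 6 epithelial markers and 4 of 6 B cell markers were detected on none. Their summed levels reached at most 0.15, 0.11, 0.12 and 0.29 with C5a and 0.23, 0.22, 0.15 and 0.38 in untreated samples. The B cell marker Cd79b was detected on 2 C5a and 1 untreated arrays. Zbtb46, Flt3, Xcr1 and Clec9a, of 8 conventional dendritic cell markers, were detected on none, and the rest of the list on at least 1 array. Among these Irf4 was detected on 2 C5a and 1 untreated arrays. The list summed to 0.23 to 0.37 with C5a and 0.30 to 0.50 in untreated samples. Plasmacytoid dendritic cell markers summed to 0.50 to 1.13 with C5a and 0.46 to 1.13 in untreated samples, with Siglech and Ccr9 detected on 2 arrays of each group. Bst2 was detected on 3 C5a and 2 untreated arrays, Tcf4 on 2 C5a and 1 untreated arrays, and Ly6d on none. Of 4 plasma cell markers only Xbp1 was detected on all arrays (0.39 to 0.76 with C5a, 0.41 to 0.75 untreated). Of neutrophil markers Csf3r was detected on all arrays and S100a8, S100a9, Retnlg and Mpo on none (2.05 to 2.62 with C5a, 1.39 to 3.04 untreated). The ranges of these sums overlapped between the groups for every list. In such samples of sorted cells, fewer cells of a type and less RNA per cell cannot be told apart.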

How the data were processed

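RNA of 6 samples (3 C5a, 3 untreated) was read on 1-colour Agilent arrays with Agilent Feature Extraction 10.10.1.1 and protocol GE1_1100_Jul11, per the file headers. The deposited scanner files hold the intensity of each spot, the processed signal after the software's own background subtraction, and flags. The deposited series table holds log2 values; 98.7% of its differences between columns lay within 0.01 of those obtained by scaling the scanner's log2 signals to an all-probe 75th percentile, so its scale and direction are known, but not each probe's baseline. Medians of its columns were 0.01, -0.02 and 0.22 for C5a 1 to 3 and 0.17, -0.08 and 0.18 for untreated 1 to 3.

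Control spots were left out, as were outlier spots (112 to 138 flagged per array) unless every spot of the probe was flagged. Spots of a probe were averaged as log2, and no spot was saturated. The 75th percentile used for scaling was taken over 2370 probes detected on all arrays. Accessions without versions were named through RefSeq of GRCm38.p6, which gave 1 gene for 32989 of 56605 probes. All 4958 tested probes were fitted with limma 3.58.1 in R 4.3.3 (lmFit, eBayes), each probe on its own, and p-values were adjusted by Benjamini-Hochberg over all of them; the fit was tested on simulated data. The number of arrays limits the precision. The normexp alternative, planned on the mean spot signal, used the median spot signal. Other alternatives were other scalings, filters, covariates, weights, the series table and leaving out samples. All arrays were on 1 slide, in rows 1 and 2, with C5a 2 and 3 alone in row 2. With the slide row as covariate, a difference therefore sets C5a 1 alone against the untreated samples.

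Same-numbered samples deviated together, with correlations of their deviations from group means of 0.22, 0.27 and 0.38 for numbers 1 to 3. For samples of different numbers the correlations ran from -0.25 to 0.07, and deviations from a mean of 3 push these down. The numbers were therefore taken as pairs in the replicate block alternative. In both groups number 2 was the brightest array and number 3 the dimmest, and what same-numbered samples share was not tested. Every member probe is named; of other lists the 2 genes with the smallest unadjusted p and any called gene, and the 5 genes most alike; Erap1, Tapbpl and other genes detected on no array were named after their values were seen. Members and lists were chosen with earlier results of these data known. One gene of the mononuclear phagocyte list is not reported here and was left out of its counts and sums.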

Additional observations from a re-analysis of the deposited data

How the results depend on the processing

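Member probes called stayed at 0 under all 19 alternative fits, with a lowest member adjusted p of 0.92 (limma, replicate block). Probes called over the whole table were 0 except without the filter on dim signals, where limma with Benjamini-Hochberg adjustment called 48 of 56605 (0.0848%), none of them a member; leaving out any 1 sample gave 0. With the replicate block, where 221 probes against 117 had an unadjusted p under 0.05, the members' median difference was 0.04 and the calls stayed at 0, for members and for all probes. The member median was 0.40 with the percentile over all probes, where the median of all tested probes was also 0.40, and lay between -0.03 and 0.30 with 1 sample left out. Both scalings subtract 1 constant from each array, so member differences are bound to agree once the median of all tested probes is subtracted. They agreed to within 0.01.

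Of 167 member values, 22 changed sign and none passed. The filters and the replicate block leave a probe's difference as in the main fit, so their values could not change sign. With the percentile over all probes H2-D1, Tapbp and Psmb8 were at 0.31, 0.22 and 0.28, and with the deposited series table at 0.30, 0.22 and 0.28. Less the median of all tested probes they were at -0.089, -0.17 and -0.12, in the main fit and with the percentile over all probes. With the series table they were then at -0.093, -0.18 and -0.12. With normexp H2-D1, Tap2, Psmb9 and Psmb10 were at 0.048, -0.066, -0.051 and -0.064. With the slide row as covariate H2-D1 and Psmb8 were at 0.14 and 0.35, with array weights Tapbp was at 0.0081, and with brightness as covariate the first H2-K1 probe was at -0.0060. With 1 sample left out, B2m ran from 0.01 to 0.33, the second H2-K1 probe from -0.62 to -0.20, Tap2 from 0.30 to 0.84, Psmb9 from 0.12 to 0.92, the first H2-K1 probe from -0.093 to 0.17, H2-D1 from -0.42 to 0.30, Tapbp from -0.33 to 0.057, Psmb8 from -0.45 to 0.26 and Psmb10 from -0.026 to 0.40. The within-array change of Psmb9 less Psmb6 was -0.41 with normexp, and with 1 sample left out ran from -0.33 to 0.83, that of Psmb8 less Psmb5 from -0.13 to 0.13 and that of Psmb10 less Psmb7 from -0.028 to 1.16. The percentile over all probes moves the difference of every probe by the same amount, and the cause of the turns under other alternatives was not tested. Leaving out both samples numbered 3, and a filter on positive and significant spots, were added after seeing the data and called 0 probes.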
